A study of Mus musculus with 6 samples.

Results

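Calcium exchangers and calcium pumps were followed in cultured mouse cerebellar granule neurons (CGNs) exposed to GSK-126, an inhibitor of EZH2, the enzyme that writes the repressive histone mark H3K27me3. The set comprised 10 genes picked by name out of the 55341 gene rows of the count tables. These were the sodium-calcium exchangers Slc8a1, Slc8a2 and Slc8a3, the plasma membrane calcium pumps Atp2b1, Atp2b2, Atp2b3 and Atp2b4, the endoplasmic reticulum pump Atp2a2, and the potassium-dependent sodium-calcium exchangers Slc24a2 and Slc24a3. Granule neuron progenitors were isolated on a Percoll gradient from the cerebella of CD1-IGS pups at P6-P8 and differentiated in culture, and all cultures were given the antimitotic drug AraC at DIV2. DMSO, the vehicle, or GSK-126 was added at DIV3, with 3 libraries per group, and the study's methods describe a biological replicate as CGNs from pooled litters. RNA was collected at DIV5 by the study's methods, whereas the labels name cerebellum and DIV3. The dose of GSK-126 given at DIV3 is not named in the sources used here.

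A neuron keeps its cytosolic calcium low by moving the ion out of the cell or into internal stores. Sodium-calcium exchangers carry large loads by trading calcium for sodium, and the potassium-dependent exchangers also carry potassium. The plasma membrane pumps spend ATP, have a high affinity for calcium and bind calmodulin, and the endoplasmic reticulum pump refills the store from which calcium is later released.

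All 10 members had a log2 fold change below 0 in GSK-126 against DMSO, as did 50.9% of all genes tested, and for Slc24a2 it was within its error of 0. Slc8a2, the sodium-calcium exchanger NCX2, lay at 37.8%, 27.7% and 33.7% of DMSO in replicates 1, 2 and 3. Atp2b2, the plasma membrane pump PMCA2, lay at 65.4%, 50.2% and 58.1%. Atp2a2 lay at 94.96%, 76.9% and 87.1%, and Slc24a2 at 89.1%, 115% and 93.1%.

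The starts of these genes differed in their sequence, and the bases before the start are shown for the 3 sodium-calcium exchangers, for Atp2b2, which lay lowest among the pumps relative to DMSO, and for Slc24a2, which lay closest to DMSO. The sequences are from RefSeq on GRCm38.p6, hold the 250 bases before a listed transcription start, are written 5′ to 3′ on the gene's strand, and have each CpG in capitals. They lie at chr7:16129576-16129825 on the plus strand for Slc8a2, and on the minus strand at chr17:81738388-81738637 for Slc8a1, chr12:81333181-81333430 for Slc8a3, chr6:113934682-113934931 for an internal start of Atp2b2 and chr4:87230541-87230790 for the outermost start of Slc24a2. None of these stretches held a base of a GENCODE exon. The outermost of the 3 listed starts of Atp2b2 had 138 such bases before it and is not shown. The 50 bases after the shown starts of Slc8a1 and Slc24a2 were not found in a GENCODE transcript of the gene.
Slc8a2: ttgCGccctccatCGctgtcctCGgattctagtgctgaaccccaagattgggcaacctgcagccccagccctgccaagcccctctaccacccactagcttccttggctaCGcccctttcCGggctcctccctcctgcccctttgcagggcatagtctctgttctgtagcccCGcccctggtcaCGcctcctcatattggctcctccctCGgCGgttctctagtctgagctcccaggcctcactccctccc
Slc8a1: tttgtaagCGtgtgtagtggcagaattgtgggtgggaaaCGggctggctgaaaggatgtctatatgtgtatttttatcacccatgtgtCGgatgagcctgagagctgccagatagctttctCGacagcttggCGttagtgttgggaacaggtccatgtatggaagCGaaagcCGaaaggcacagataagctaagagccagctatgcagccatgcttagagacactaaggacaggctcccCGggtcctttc
Slc8a3: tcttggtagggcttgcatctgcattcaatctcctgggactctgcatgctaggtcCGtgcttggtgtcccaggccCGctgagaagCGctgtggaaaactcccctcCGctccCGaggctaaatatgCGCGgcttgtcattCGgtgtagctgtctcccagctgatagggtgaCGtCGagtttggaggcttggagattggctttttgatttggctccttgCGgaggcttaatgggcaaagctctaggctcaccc
Atp2b2: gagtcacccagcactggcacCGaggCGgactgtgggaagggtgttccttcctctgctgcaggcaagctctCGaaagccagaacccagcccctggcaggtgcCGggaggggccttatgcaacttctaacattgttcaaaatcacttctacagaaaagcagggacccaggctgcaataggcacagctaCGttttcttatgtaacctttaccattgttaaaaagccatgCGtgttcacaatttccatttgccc
Slc24a2: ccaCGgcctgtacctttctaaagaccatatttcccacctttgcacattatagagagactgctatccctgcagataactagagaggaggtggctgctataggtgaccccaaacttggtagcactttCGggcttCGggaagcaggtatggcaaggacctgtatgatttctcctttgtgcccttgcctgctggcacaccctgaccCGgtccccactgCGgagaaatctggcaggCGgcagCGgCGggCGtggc

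Promoter windows, taken from 250 bases before to 50 after a start, were listed for 8 of the 10 members, with 13 starts in all. Atp2a2 and Atp2b3 had no entry. Over all 32851 windows the median CpG count was 7, with quartiles of 3 and 20. The Slc8a2 window held 10 CpGs, the Slc8a1 window 9 and the Slc8a3 window 18. The Atp2b2 windows held 27 at the outermost start, 8 at the internal start shown above and 12 at the other. The windows richest in CpG belonged to Atp2b1, with 54 and 45, and to the outermost start of Slc24a3, with 43, and among these windows a high CpG count went with genes on either side of the test described below. The GC box, GGGCGG searched on both strands, was found in 6 of the 13 windows, including that of Slc8a2, and in 35.66% of all windows. The E-box, CANNTG, was found in 7 of the 13 and in 72.31% of all windows. The letters CAGCAGG, used as a ZIC-type motif on both strands, were found in 2 of the 13, those of Atp2b4 and the outermost start of Slc24a2, and in 10.51% of all windows. The palindrome TGACGTCA, the cyclic AMP response element, was in none of the 13 and in 1.79% of all windows. These matches describe letters in a window and not binding sites.

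The libraries held between 7407189 and 13092763 counts on genes, and all 10 members passed the filter on low counts that left 16729 genes. Levels are given as CPM, a gene's counts relative to the library's total, scaled by TMM factors, and as RPKM, which divides by exon length, where genes are compared with each other. The 9 granule neuron markers, among them Neurod1, Zic1 and Gabra6, were above 1 CPM in every library. Their summed level was between 3919 and 6252 CPM in DMSO and between 3089 and 4832 CPM in GSK-126. Markers of other cells were also detected, with those of fibroblasts summing to between 7082 and 10064 CPM and those of astroglia to between 2172 and 7456 CPM over the 6 libraries. The 5 Purkinje cell markers summed to between 12.6 and 27.7 CPM. In these bulk cultures, fewer cells of a type and less RNA per cell cannot be told apart. Replicate 2 of both groups stood apart on the leading principal component, which held 46.4% of the variance, and had the highest granule neuron sum and the lowest astroglial sum of its group. Libraries sharing a replicate number deviated together, so the 3 numbers are treated as pairs.

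A pair of fits across all genes is therefore given, both made in edgeR with the quasi-likelihood test and Benjamini-Hochberg adjustment over the 16729 genes. Slc8a2 had been singled out for its fall in these data, so it is given without a test. The calls below count the other 9 members. Without a term for the replicate number, 0 of the 9 and 0 of all genes were called at an adjusted p under 0.05. At an unadjusted p under 0.05, Slc8a1 was lower, as were 2.21% of all genes tested. DESeq2 without the replicate number also called 0 of the 9, with 1, Slc8a1, at an unadjusted p under 0.05, and it called 0.0137% of the genes it tested as lower. With the replicate number as a block, edgeR called 6 of the 9 lower and 0 higher, against 5.09% of all genes called lower and 3.35% called higher. Those 6 were Slc8a1, Slc8a3, Atp2b1, Atp2b2, Atp2b3 and Atp2b4, and Atp2a2, Slc24a2 and Slc24a3 were not called. DESeq2 with the block also called 6 lower, with Atp2a2 in place of Slc8a3, against 4.87% of the genes it tested. Leaving out pair 1, 2 or 3 from the blocked edgeR fit gave 6, 2 and 6 called lower, against 3.98%, 2.95% and 4.25% of all genes, and the 2 called without pair 2 were Atp2b2 and Atp2b3. All members were proposed with results of this contrast known, so nothing is read from their share beyond the description. The balance of lower and higher calls over all genes depended on the scaling. The blocked fit called 851 genes lower and 561 higher with TMM factors, 698 and 727 with upper-quartile factors, and 707 and 714 with total counts alone. Under each of these scalings 0 members were called higher.

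**Figure D1:**
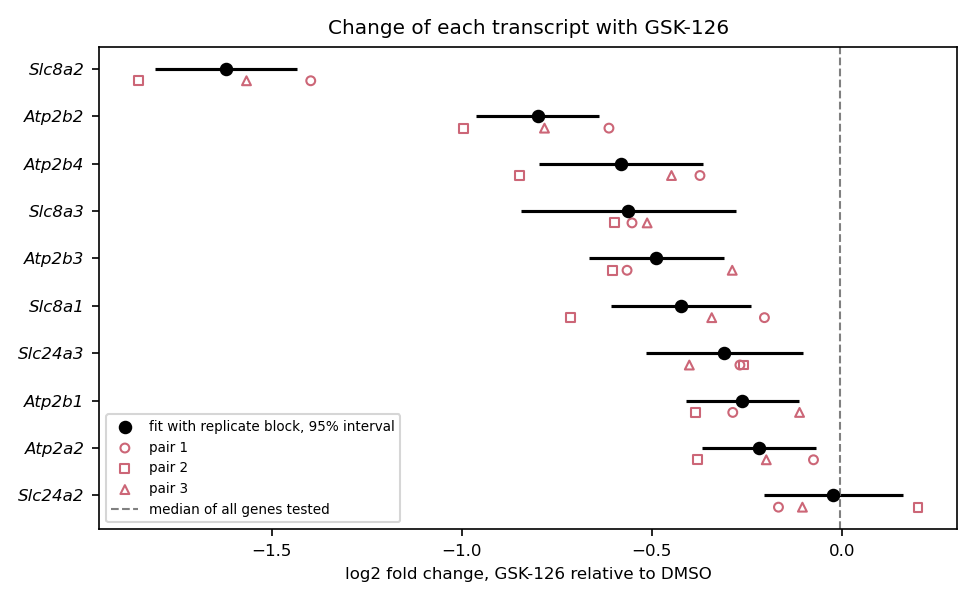
Log2 fold change of each member, GSK-126 against DMSO, in the blocked edgeR fit (horizontal axis, log2 scale, filled points, lines are 95% intervals), with the difference within each of the 3 pairs as open symbols and the median of all genes as a dashed line. Slc8a2 lies furthest below 0, at -1.62, and Slc24a2 lies at -0.02. Slc8a2 was chosen for its fall in these data, so its interval is not a test.

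The median log2 fold change of the 10 members was -0.47 without the block and -0.46 with it, and that of all genes was -0.01 in both fits. Within pairs the members' median was -0.33, -0.60 and -0.37 for replicates 1, 2 and 3 (SD 0.15, n = 3 pairs), and the deepest of these belonged to the pair that stood apart. A lower level in GSK-126 in all 3 pairs was found for 9 of the 10 members and for 22.8% of all genes. With the groups taken as unpaired, the 3 GSK-126 values lay wholly below the 3 DMSO values for 1 member, Slc8a1, and for 4.72% of all genes. An exact permutation test of 3 against 3 libraries cannot go below 0.1, so no such test was used for single members.

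**Figure D2:**
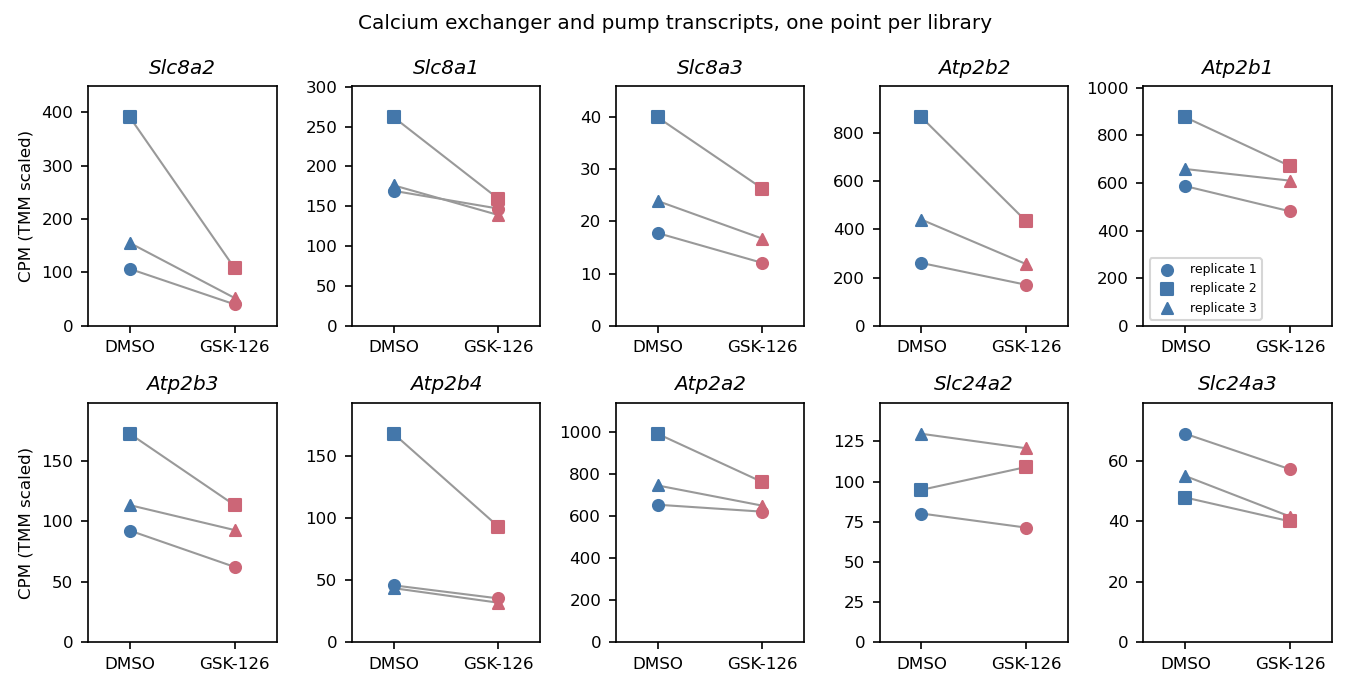
Level of each member in every library (vertical axis, CPM), with DMSO and GSK-126 side by side, a line joining the libraries of each replicate number and a symbol for each number. Slc8a2 lies at 107, 390.2 and 155 CPM in DMSO and at 40.3, 108 and 52.2 CPM in GSK-126, and Slc24a2 has lines in both directions.

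Slc8a2 (ENSMUSG00000030376.8, GRCm38 chr7:16129826-16161063, plus strand) encodes NCX2, an exchanger found mainly in brain. It was at 107, 390.2 and 155 CPM in DMSO replicates 1, 2 and 3 and at 40.3, 108 and 52.2 CPM in GSK-126. Every GSK-126 library lay well below the DMSO library of its own number, but GSK-126 replicate 2 was just above DMSO replicate 1, so the groups overlapped. The means were 217 ± 152 and 66.8 ± 36.1 CPM (SD, n = 3). The log2 fold change was -1.70 (SE 0.54) without the block and -1.62 (SE 0.09) with it. With the block it ranked 19 of 16729 genes from the lowest. Because the gene was chosen for its fall in these data, nothing is read from that rank. The log2 fold change with the block ranged from -1.71 to -1.48 when a pair was left out. Without the block it stood at -0.97 when DMSO replicate 2 was left out.

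Slc8a1 (ENSMUSG00000054640.15, chr17:81373105-81738377, minus strand) encodes NCX1, the exchanger best known from heart muscle and also present in neurons and glia. It was at 169, 262 and 176 CPM in DMSO and at 147, 159 and 139 CPM in GSK-126. All GSK-126 values lay below all DMSO values, and the gap was widest in replicate 2. The log2 fold change with the block was -0.42 (SE 0.09), with an adjusted p of 0.00389 in edgeR. Without pair 2 it was -0.27 with an adjusted p of 0.0557, so the call rested on that pair. Exons of Slc8a1 overlap those of AC122399.1 on the opposite strand over 296 bases.

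Slc8a3 (ENSMUSG00000079055.10, chr12:81197915-81333180, minus strand) encodes NCX3, found in brain and skeletal muscle. It was at 17.8, 39.9 and 23.9 CPM in DMSO and at 12.1, 26.3 and 16.7 CPM in GSK-126. The level stood at 67.8%, 65.9% and 69.9% of DMSO, an even ratio in the 3 pairs, while replicate 2 was the highest library of each group. Its log2 fold change in the blocked fit was -0.56 (SE 0.14), with an adjusted p of 0.0111 in edgeR, and the call was lost in DESeq2 with the block, at an adjusted p of 0.0633, and in edgeR without pair 2, at 0.0884. Its counts were the lowest of the set, between 125 and 428 per library.

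In each pair the log2 change of Slc8a2 lay below that of Slc8a1, by -1.19, -1.14 and -1.22 (SD 0.04, n = 3 pairs). On the RPKM scale Slc8a2 made up 62.1%, 77.6% and 68.0% of the summed level of the 3 sodium-calcium exchangers in DMSO, and 43.2%, 60.5% and 48.5% in GSK-126. Slc8a1 made up 27.6%, 14.6% and 21.6% in DMSO and 44.1%, 24.99% and 36.2% in GSK-126. The RPKM of Slc8a2 was 2.25, 5.33 and 3.14 times that of Slc8a1 in DMSO and 0.98, 2.42 and 1.34 times in GSK-126, so that in GSK-126 replicate 1 the 2 genes were level. The summed RPKM of the 3 genes was 54.4%, 35.5% and 47.2% of DMSO in GSK-126.

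Atp2b1 (ENSMUSG00000019943.10, chr10:98914406-99026143, plus strand) encodes PMCA1, the pump made in nearly all cells. It was at 586, 875 and 658 CPM in DMSO and at 481, 670.3 and 609 CPM in GSK-126. Each GSK-126 library was below its pair and the groups overlapped. In the blocked fit the log2 fold change was -0.26 (SE 0.07), with an adjusted p of 0.0255 in edgeR. The call was lost without pair 1, at an adjusted p of 0.114, without pair 2, at 0.164, and with upper-quartile factors, at 0.0501.

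Atp2b2 (ENSMUSG00000030302.16, chr6:113743831-114042613, minus strand) encodes PMCA2, a fast pump enriched in cerebellum and in hair cells of the inner ear. It was at 260.4, 863 and 439.9 CPM in DMSO and at 170.2, 433 and 256 CPM in GSK-126. The level in replicate 2 was well above the other libraries in both groups, and each GSK-126 library was below its pair. With the block the log2 fold change was -0.80 (SE 0.08), with an adjusted p of 1.33e-06 in edgeR, and without pair 2 it was -0.70. The log2 change of Slc8a2 lay below that of Atp2b2 by -0.78, -0.86 and -0.78 in the 3 pairs.

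Atp2b3 (ENSMUSG00000031376.15, chrX:73503086-73571005, plus strand) encodes PMCA3, which is largely neuronal. It was at 92.4, 172 and 113 CPM in DMSO and at 62.4, 113 and 92.8 CPM in GSK-126. The groups overlapped, and each GSK-126 library was below its pair. Its log2 fold change in the blocked fit was -0.49 (SE 0.08), with an adjusted p of 8.07e-04 in edgeR, and the gene was also called with any of the pairs left out. The gene is X-linked, and Xist, the RNA of the inactive X, was lower in replicate 2 (758 CPM in DMSO, 726 in GSK-126) than in the other libraries, where it ranged from 1130 to 1286 CPM. What that difference has to do with the higher Atp2b3 level of replicate 2 was not tested.

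Atp2b4 (ENSMUSG00000026463.17, chr1:133699457-133801041, minus strand) encodes PMCA4. It was at 45.9, 168 and 43.6 CPM in DMSO and at 35.4, 93.1 and 31.9 CPM in GSK-126. Replicate 2 was far above the other libraries in both groups, and each GSK-126 library was below its pair. The log2 fold change with the block was -0.58 (SE 0.10), with an adjusted p of 9.66e-04 in edgeR. Without pair 2 it was -0.41 with an adjusted p of 0.0773, and in the unblocked fit without DMSO replicate 2 the sign turned, to 0.26.

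Within the 4 plasma membrane pumps the summed RPKM was 121 ± 48.6 in DMSO and 84.2 ± 24.4 in GSK-126 (SD, n = 3), and stood at 74.2%, 62.4% and 78.1% of DMSO in the 3 pairs. Atp2b2 was at 0.536, 1.19 and 0.807 times the RPKM of Atp2b1 in DMSO and at 0.427, 0.780 and 0.506 times in GSK-126. The ratio was thus lower in each pair. Atp2b3 kept a share between 20.4% and 23.4% of the summed pump RPKM in all 6 libraries.

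Atp2a2 (ENSMUSG00000029467.15, chr5:122453513-122502225, minus strand) encodes SERCA2, which loads the endoplasmic reticulum. It was at 655, 993 and 747 CPM in DMSO and at 622, 763 and 651 CPM in GSK-126. Each GSK-126 library was below its pair, and the pair of replicate 1 differed least. The log2 fold change with the block was -0.22 (SE 0.07, 95% interval -0.37 to -0.07), with an adjusted p of 0.0697 in edgeR, and it was called in DESeq2 with the block, at an adjusted p of 0.0461, and in edgeR without pair 1, at 0.0384. Without pair 2 it was -0.13, at an adjusted p of 0.359, without pair 3 the adjusted p was 0.153, and with the block and upper-quartile factors it was 0.118. The log2 change of Slc8a2 lay below that of Atp2a2 by -1.32, -1.47 and -1.37 in the 3 pairs.

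Slc24a2 (ENSMUSG00000037996.17, chr4:86983124-87230477, minus strand) encodes NCKX2, an exchanger of neurons and cone photoreceptors. It was at 80.2, 94.9 and 129.8 CPM in DMSO and at 71.4, 109 and 121 CPM in GSK-126. The groups lay on top of each other, and replicate 2 was higher in GSK-126 while the other 2 were lower. The log2 fold change with the block was -0.02 (SE 0.09, 95% interval -0.20 to 0.16), with an adjusted p of 0.916 in edgeR. Its sign turned under upper-quartile factors and total counts. The interval thus reached from 0.868 to 1.12 times the DMSO level.

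Slc24a3 (ENSMUSG00000063873.10, chr2:145167754-145642166, plus strand) encodes NCKX3, found in brain and smooth muscle. It was at 68.9, 47.8 and 54.9 CPM in DMSO and at 57.1, 40.0 and 41.5 CPM in GSK-126. Here replicate 2 was the lowest library of each group, unlike in the sodium-calcium exchangers and the plasma membrane pumps, where it was the highest. Each GSK-126 library was at 83.0%, 83.5% or 75.6% of its pair. With the block the log2 fold change was -0.31 (SE 0.10, 95% interval -0.51 to -0.10), with an adjusted p of 0.0586 in edgeR and of 0.203 in DESeq2 with the block.

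**Figure D3:**
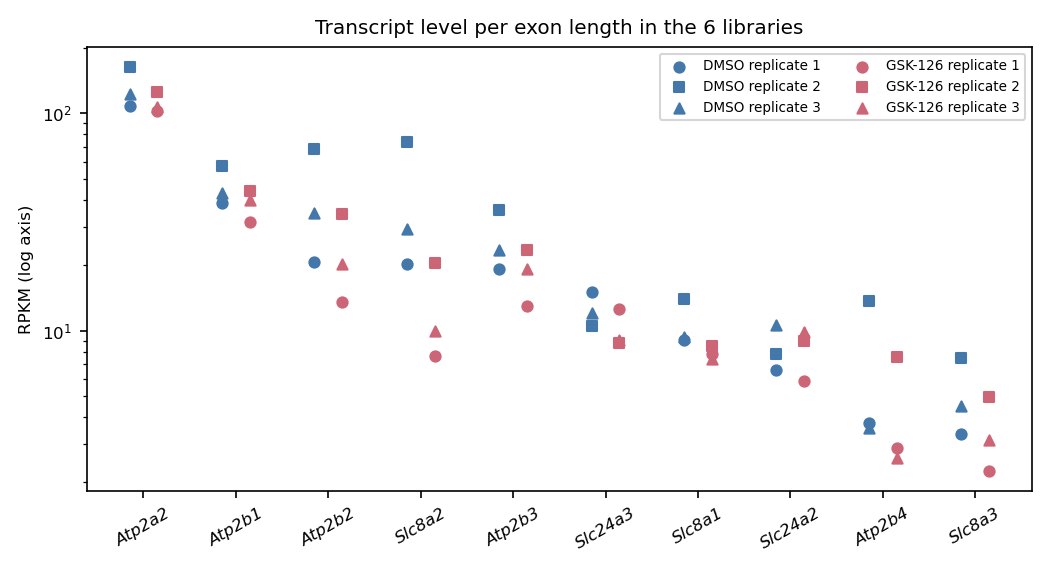
Level of the 10 members per exon length (RPKM, log axis) in each library, DMSO and GSK-126, ordered by the DMSO mean. Atp2a2 is highest in every library and Slc8a2 moves from a DMSO mean of 41.3 to 12.7.

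Per exon length, the order of the members in DMSO ran from Atp2a2, at 131 ± 28.7 RPKM, through Atp2b1, at 46.4 ± 9.88, Atp2b2, at 41.3 ± 24.6, Slc8a2, at 41.3 ± 28.8, and Atp2b3, at 26.2 ± 8.60. Slc24a3, Slc8a1, Slc24a2, Atp2b4 and Slc8a3 followed, at 12.5 ± 2.34, 10.8 ± 2.73, 8.32 ± 2.08, 7.004 ± 5.80 and 5.10 ± 2.14 RPKM (SD, n = 3). Of the neighbours in this order, only Atp2a2 over Atp2b1 and Atp2b3 over Slc24a3 had ranges that did not overlap, in both groups. Slc24a3 over Slc8a1 had ranges apart in GSK-126 only, and the other 6 neighbouring pairs overlapped in both. In GSK-126, Slc8a2 was at 12.7 ± 6.86 RPKM, below the 18.6 ± 5.33 of Atp2b3, although Slc8a2 and Atp2b3 overlapped in both groups.

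The spread among cultures was itself uneven over the members. DMSO replicate 2 had 3.66 times the CPM of DMSO replicate 1 for Slc8a2 and for Atp2b4 and 3.32 times for Atp2b2. The ratio was 1.49 for Atp2b1, 1.52 for Atp2a2 and 1.54 for Slc8a1, and it was 0.695 for Slc24a3. Slc8a2, Atp2b2 and Atp2b4 thus differed most between these replicates.

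**Figure D4:**
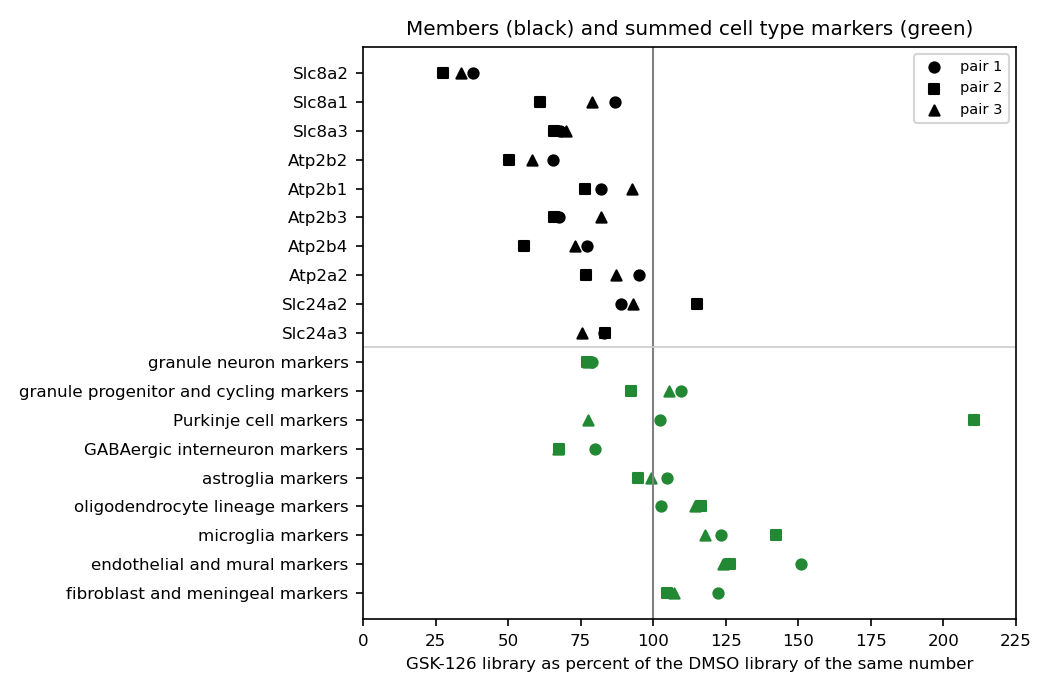
Level in GSK-126 as a percent of the DMSO library with the same replicate number (horizontal axis, 100% is no difference), for each member (black) and for the summed markers of each cell type (green), with 1 symbol per pair. Slc8a2 lies at 37.8%, 27.7% and 33.7%, and the granule neuron markers at 78.8%, 77.3% and 77.6%.

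Markers of cell types differed in direction. The granule neuron and GABAergic interneuron sums were lower in each pair, and the other sums were near DMSO, higher or mixed. The summed granule neuron markers were at 78.8%, 77.3% and 77.6% of DMSO. In edgeR with the block 6 of the 9 were called lower, against 5.09% of all genes called lower and 3.35% called higher. The single markers ranged widely, from a log2 fold change of -1.95 for Slc17a7, the vesicular glutamate transporter, through -1.19 for Gabra6 and -0.90 for Cbln3, to -0.07 for Pax6, so that some lay as low as or lower than Slc8a2 and Atp2b2. GABAergic interneuron markers were at 79.9%, 67.7% and 67.2%, with 4 of 5 tested called lower, and Pvalb of that list and Calb1 of the Purkinje list are also calcium binding proteins. Astroglial markers were at 105%, 94.8% and 99.1%, with 1 of 6 called higher. Microglial markers were at 123%, 142% and 118%, with 2 of 6 called higher, and endothelial and mural markers at 151%, 127% and 124%, with 2 of 5 tested called higher. Fibroblast markers were at 122%, 105% and 107%, with 1 of 5 called higher, oligodendrocyte lineage markers at 103%, 116% and 114%, with 1 of 7 called higher, and progenitor and cycling markers at 110%, 92.4% and 105%. Purkinje cell markers were near 0 and at 102%, 211% and 77.7%. The part of these shifts in the members' levels was not tested.

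**Figure D5:**
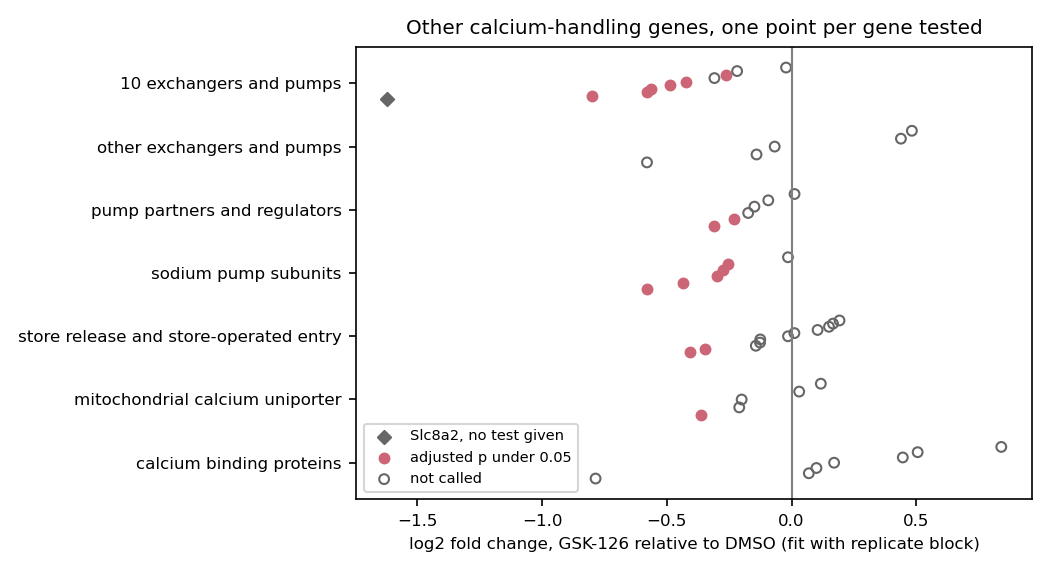
Log2 fold change with the replicate block (horizontal axis, log2 scale) of the 10 members and of the genes of 6 other calcium lists that passed the filter, with 1 point per gene, calls filled and Slc8a2 as a diamond without a test. The members have a median of -0.46 and the sodium pump subunits of -0.29.

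Other genes of calcium handling were counted from 6 lists with 49 symbols, of which 40 were tested. Of these 40, 10 were called lower and 0 higher in edgeR with the block, 5 lower without pair 2, and 8 lower in DESeq2 with the block, and without the block 0 were called, with 2 lower at an unadjusted p under 0.05. Their median log2 fold change with the block was -0.11. Beside the counts of all these lists, 5.09% of all genes were called lower and 3.35% higher in edgeR with the block. With pair 1, 2 or 3 left out, 3.98%, 2.95% and 4.25% were called lower. In DESeq2 with the block 4.87% of the genes it tested were called lower. Without the block, 2.21% were lower at an unadjusted p under 0.05 in edgeR. The lists were chosen with earlier results of these data known, so the counts are a description. The sodium pump, which builds the sodium gradient that the exchangers use, had 5 of 6 tested subunits called lower, with a median of -0.29. Atp1b2, its glial beta subunit, fell from 749 ± 173 to 497 ± 71.4 CPM (log2 fold change -0.58, SE 0.08, adjusted p 9.59e-05 in edgeR with the block). The number of called subunits was 4, 3 and 2 without pair 1, 2 or 3.

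The partners and regulators of the pumps had 2 of 6 tested genes called lower, and 1 with any of the pairs left out. Neuroplastin (Nptn), which forms complexes with the plasma membrane pumps, fell from 335 ± 71.9 to 268 ± 34.9 CPM (log2 fold change -0.31, SE 0.07, adjusted p 0.00986 in edgeR with the block). Of the calmodulin genes, Calm2 fell from 573 ± 80.9 to 491 ± 95.02 CPM (-0.23, SE 0.07, adjusted p 0.0411). Exons of Nptn overlap those of Rec114 on the opposite strand over 344 bases.

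Of the genes for store release and store-operated entry, 2 of 11 tested were called lower, both ryanodine receptors. The number was 1 with any of the pairs left out or in DESeq2 with the block. Ryr2 fell from 256 ± 58.3 to 202 ± 46.2 CPM (log2 fold change -0.35, SE 0.07, adjusted p 0.00321 in edgeR with the block), and Ryr3 from 44.8 ± 14.5 to 33.9 ± 12.0 CPM (-0.41, SE 0.11, adjusted p 0.0220). Exons of Ryr3 overlap those of Aven on the opposite strand over 916 bases. The list's median was -0.01. Of the mitochondrial uniporter genes 1 of 5 tested was called lower in edgeR with the block, and none was called without pair 2, without pair 3 or in DESeq2 with the block.

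The remaining exchangers and pumps had 0 of 5 tested genes called in edgeR with the block, with 0 lower and 1 higher at an unadjusted p under 0.05, and 0 called in DESeq2 with the block. The most abundant of them, the Golgi pump Atp2c1, was at 112 ± 2.74 and 107 ± 5.55 CPM (log2 fold change -0.07, SE 0.08, adjusted p 0.687). Calcium binding proteins had 0 of 7 called in edgeR or in DESeq2 with the block, with 0 lower and 1 higher at an unadjusted p under 0.05 in each, and a median of 0.17. The count was 1 higher without pair 3. Calreticulin (Calr), the store's buffer and the most abundant of them, was at 709.6 ± 83.3 and 803 ± 146 CPM (0.17, SE 0.07, adjusted p 0.176).

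The genes whose pattern was most like that of Slc8a2 were sought among 7215 genes with a mean log2 CPM over 5, by Pearson's correlation of log2 CPM over the 6 libraries, which share the replicate numbers and the treatment. The highest values were 0.998 for Rbm5, a splicing factor, 0.997 for Rims2, a presynaptic scaffold, 0.997 for Arhgef7, an exchange factor for small GTPases, 0.996 for Zcchc14 and 0.996 for Kcnc1, a fast potassium channel. A correlation does not weigh the size of a change. The log2 fold change with the block was -0.24 for Rbm5, -0.50 for Rims2, -0.29 for Arhgef7, -0.27 for Zcchc14 and -0.88 for Kcnc1, against -1.62 for Slc8a2. Kcnc1, with the largest change of the 5, was at 382, 793 and 439 CPM in DMSO and at 223, 395 and 241 CPM in GSK-126. Among the members the correlation with Slc8a2 was 0.948 for Atp2b2, 0.942 for Slc8a1, 0.941 for Slc8a3, 0.937 for Atp2b3, 0.928 for Atp2a2, 0.919 for Atp2b1 and 0.835 for Atp2b4. It was 0.236 for Slc24a2 and -0.03 for Slc24a3. High correlations with Slc8a2 were common over these libraries. The value for Atp2b2 exceeded that of 94.5% of the genes compared, that for Atp2a2 91.7%, that for Atp2b1 90.4% and that for Atp2b4 79.4%. For Slc24a2 and Slc24a3 the shares were 48.6% and 41.9%.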

How the data were processed

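RNA of 6 CGN cultures was measured, 3 given DMSO and 3 given GSK-126. The authors trimmed reads with Trimmomatic 0.38 and aligned them with STAR 2.7.2b (versions from the submitters' processing notes) to GRCm38, ran HTSeq over exons, and deposited the resulting raw counts per gene without normalization. The counting's strand setting is not given in the sources used here. Lines naming no gene held 58.7% to 60.7% of the listed reads and were left out. The 55341 symbols matched GENCODE M21 (GRCm38), which gave identifiers, coordinates and exon lengths.

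Counts were tested in R 4.3.3 with edgeR 4.0.16 (TMM, filterByExpr, quasi-likelihood test, Benjamini-Hochberg over 16729 genes). DESeq2 1.42.0, other scalings and filters, the replicate block and left-out libraries or pairs were alternatives. The labels number replicates in both groups. Deviations from the group means had correlations of 0.56, 0.63 and 0.49 across genes between libraries with the same number and at most 0.0064 otherwise, so the numbers pair the libraries, and the blocked values are printed. The biological coefficient of variation was 24.04% without the block and 9.74% with it. No libraries were copies, as the chi-square per degree of freedom was at least 8.40 for every pair of libraries.

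On simulated data of the same 16729 genes, the fit with the block recovered 42 of 100 genes changed by 0.5 (log2). It recovered 100 of 100 changed by 1.5, with 3 false calls, and the fit without the block recovered 0 and 52. The simulated data carried the pair effects of the measured libraries and the same dispersion for all genes, near that of the blocked fit. That setting favoured the block, so the counts do not decide between the fits. Whether these counts hold for the spread of the measured libraries was not tested. P-values of the unblocked fits measure the spread between these cultures. Those of the blocked fits rest on the spread of the differences within pairs. In all fits a gene's spread is moderated by that of other genes, so its SE and interval are not its own spread alone. The SD over the 3 pairs was 0.26 for Slc8a1 and 0.04 for Slc8a3, and their blocked SE in edgeR was 0.09 and 0.14.

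The members and gene lists were chosen with earlier results of these data known. All members are named, and of each other list up to 3 called genes with the smallest p and the most abundant gene, except genes whose results are not reported here. Of the 49 listed symbols, 48 were in the tables, Strit1 being the exception. Slc8a2 is named without a p because it had been singled out for its fall in these data.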

Additional observations from a re-analysis of the deposited data

How the results depend on the processing

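No library left out of the unblocked fit changed the count of members called, which stayed at 0, while the median of the members ranged from -0.60 to -0.19, the latter without DMSO replicate 2. Slc8a2, chosen for its fall in these data, stands in the following counts of members called, which were fixed over all 10. Nothing is read from its own calls. Over the other 9 members, 6 were called lower with the block and 6 in DESeq2 with the block. With the block and pair 1, 2 or 3 left out, 6, 2 and 6 of the 9 were called lower. The members called lower numbered 7 with the replicate block, 7 in DESeq2 with the block, 3 to 7 with a pair left out (3 without pair 2), and, in alternatives chosen after seeing the data, 7 with the block and DESeq2 size factors, 6 with upper-quartile factors, 7 with total counts and 5 at an adjusted p under 0.01. Over all genes, those lower and higher were 851 and 561 with the block, 1 and 9 with no filter on low counts, 2 and 19 in DESeq2, 600 and 351 in DESeq2 with the block, 671, 496 and 719 and 417, 337 and 558 with the block and pair 1, 2 or 3 left out, 837 and 582 with the block and DESeq2 size factors, 698 and 727 with upper-quartile factors, 707 and 714 with total counts, and 474 and 242 at an adjusted p under 0.01. With a library left out Atp2b4 ranged from -1.33 (without GSK-126 replicate 2) to 0.26 (without DMSO replicate 2), and Slc24a2 from -0.17 to 0.20, with 0.19 among these. Slc24a2 also turned to 0.0164 with upper-quartile factors, 0.0153 with total counts, 0.0623 and 0.0218 with the block and pair 1 or pair 3 left out, and 0.0129 and 0.0131 with the block and upper-quartile factors or total counts. The median of the remaining exchangers and pumps turned from -0.07 to 0.19 and 0.0402 with the block and pair 1 or pair 2 left out, and that of the store genes from -0.02 to 0.0044 in DESeq2 with the block. The causes were not tested. Of 200 alternative values of single members, those of Slc8a2 included, 140 kept direction and side of the threshold, 51 passed it where the unblocked fit had not, and 9 turned.

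Depth limits Slc8a3 most, with 125 to 428 counts per library. The biological coefficient of variation of the same 6 libraries was 24.04% without the block and 9.74% with it.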
